A study of Sus scrofa with 5 samples.

Results

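The epithelial miRNAs ssc-miR-204, ssc-miR-205 and ssc-miR-429 (prefix omitted below) were followed through exosomes of 5 pig body fluids. They were taken by name from the deposited tables, and all 3 were present among the 411 listed names of each table. Exosomes are small vesicles that cells shed into the fluid around them. They were collected from urine, bile, semen, serum and plasma of 180-day-old pigs of the Chinese Rongchang breed, and each fluid was sequenced as 1 small RNA library. No treatment or genotype distinguishes the groups, and the labels do not say how many animals stand behind each library. Every difference below is therefore a difference between single libraries, with no replicate check and no p-value, and the 95% intervals cover counting error only.

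miRNAs are short RNAs that pair with messenger RNAs through a seed near their 5′ end and lower the output of those messages. In human and mouse, miR-204 is abundant in the epithelium of the kidney tubule, the retinal pigment layer and the choroid plexus, and is made from an intron of the ion channel gene TRPM3. miR-205 is known from stratified and basal epithelia such as skin, mammary gland and prostate. miR-429 belongs to the miR-200 family, which with miR-205 represses the transcription factors ZEB1 and ZEB2 and so keeps cells epithelial. In the RefSeq annotation of the pig assembly Sscrofa11.1, MIR204 lies within the span of TRPM3, MIR205 within a long non-coding RNA, LOC102159171, and MIR429 next to TTLL10. The deposited tables were made on another assembly, so only these neighbours were taken from it. The close relatives miR-211, miR-200a, miR-200b, miR-200c and miR-141 are not among the 411 listed names and so were not analysed here. The sources used here do not give how reads that match several miRNAs were assigned.

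The listed miRNAs summed to between 26522 counts in the urine library and 2284926 in semen. No count between 1 and 9 occurs in the tables, so a value listed at 0 stands for at most 9 reads. Those 9 reads correspond to 339 CPM (counts per 1000000 listed miRNA counts) in urine, 5.38 in bile, 3.94 in semen, 19.0 in serum and 7.80 in plasma. A second column gives RPM, reads per 1000000 of a larger library total, of which the listed miRNAs made up 0.246% in urine and 4.47% to 21.2% elsewhere. The CPM describes the make-up of the listed miRNAs, and the RPM is relative to the authors' total. The sources used here do not say which reads that total counts, so what a difference between the scales means cannot be settled. On the RPM scale 9 reads lie between 0.833 and 1.25 in every fluid. Markers of known sources stood as follows: the liver miRNA miR-122 led a hepatocyte list that held 5.47% of bile, a list led by the male germ cell miRNA miR-34c was listed above 0 in semen alone, and the red cell miRNA miR-451 led a list that held 10.2% of serum. In plasma the red cell list held 0.583% and the hepatocyte list 1.03%.

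The 3 miRNAs fell into a pair of listing patterns. miR-204 and miR-429 were above 0 in urine, bile and semen and listed at 0 in serum and plasma, whereas miR-205 was above 0 in semen, serum and plasma and listed at 0 in urine and bile. Semen was the only one of the 5 libraries in which all 3 were listed above 0. Of the 237 miRNAs that reached 10 counts in any library, 3 had the pattern of miR-204, or 1.27%: miR-204, miR-429 and miR-9, a miRNA best known from the nervous system. The pattern of miR-205 was that of 8 miRNAs, or 3.38%, among them miR-18a and miR-326. Both patterns were counted after the values were seen.

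miR-204 had 125 counts in urine, 260 in bile and 156 in semen, and it was listed at 0 in serum and plasma. Its CPM was 4713 in urine (95% interval 3925 to 5613), 155 in bile (137 to 175) and 68.3 in semen (58.0 to 79.9). It was thus the 23rd most abundant of the 84 miRNAs above 0 in urine, the 85th of 179 in bile and the 95th of 174 in semen. Urine stood 30.3 times above bile (24.3 to 37.7) and 69.0 times above semen (54.1 to 87.9), and bile 2.28 times above semen (1.86 to 2.79). With other library totals the excess was smaller: urine was 14.0 times bile and 34.8 times semen with edgeR TMM sizes, 19.4 and 42.9 times with DESeq2 size factors, and 26.4 and 41.8 times without the most abundant miRNA of each library. Set against 10 counts in place of the listed 0, urine was at least 223 times higher than serum (lower counting limit 117) and at least 544 times higher than plasma (286). None of the 3 fluid intervals of miR-204 overlap on the CPM scale.

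The listed 0 of miR-204 in serum and plasma can be set against the reads that other shares would give. At its bile share, serum would have held 73.5 reads and plasma 179. At its semen share, the lowest of the 3, serum would have held 32.3 reads and plasma 78.8, against at most 9 in each. Bile was at least 7.35 times higher than serum (3.93 at the lower end) and at least 17.9 times higher than plasma (9.59).

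On the authors' RPM scale the order of the fluids was different. miR-204 stood at 11.6 RPM in urine, 24.6 in bile and 14.4 in semen. Urine was then at 0.470 times bile and 0.802 times semen. No interval was computed for these ratios, and the 0.802 rests on 125 counts in urine and 156 in semen. Whether urine lay below semen on this scale beyond counting error was not tested. Thus, of these 3 fluids, urine had the highest share of miR-204 among its listed miRNA counts but the lowest value per 1000000 of the authors' total, whose make-up is not stated.

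**Figure D1:**
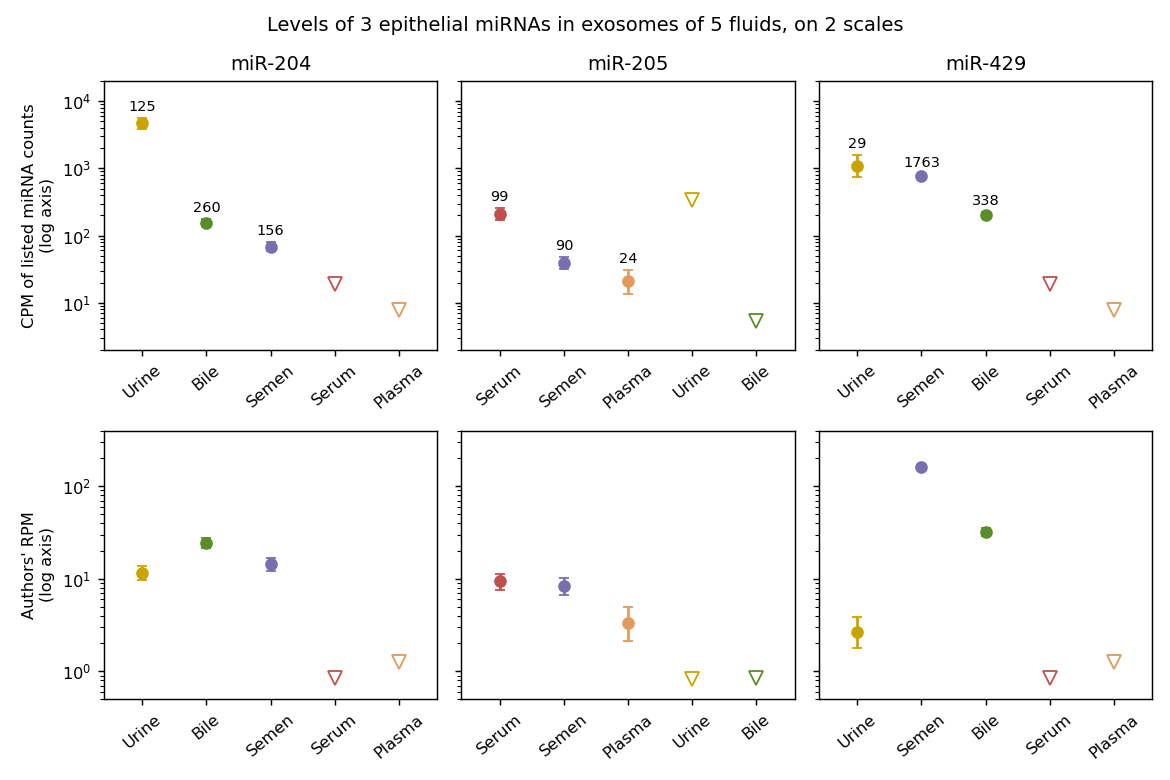
Levels of miR-204, miR-205 and miR-429 in 1 library per fluid, as CPM of the listed miRNA counts (upper row, with read counts above the points) and as the authors' RPM (lower row), both on log axes. Bars are 95% counting intervals, and open triangles mark the level of 9 reads for a value listed at 0. miR-204 is highest in urine on the upper scale, at 4713 CPM, but not on the lower one, at 11.6 RPM; the intervals of miR-429 in urine and semen overlap on the upper scale, and urine is lowest of its 3 fluids on the lower one, at 2.69 RPM.

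miR-429 had 29 counts in urine, 338 in bile and 1763 in semen, and was listed at 0 in serum and plasma. Its CPM was 1093 in urine (732 to 1570), 202 in bile (181 to 225) and 772 in semen (736 to 808). Its rank was 51st of 84 in urine, 78th of 179 in bile and 37th of 174 in semen. Urine and semen were not told apart by counting error: urine was 1.42 times semen, with an interval of 0.946 to 2.04. That ratio turned below 1 under each other library total tried, at 0.714 times with edgeR TMM sizes, 0.882 times with DESeq2 size factors and 0.858 times without the most abundant miRNA of each library. Urine stood 5.41 times above bile (3.57 to 7.92) and semen 3.82 times above bile (3.40 to 4.30). Urine came to 2.50 times bile with TMM sizes and to 3.46 times with DESeq2 size factors.

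On the RPM scale miR-429 was at 2.69 in urine, 32.0 in bile and 163 in semen. Semen was then 5.10 times bile, and urine was at 0.0165 times semen. Semen therefore exceeded bile on both scales, while the place of urine depended on the scale. The blood fluids were below the 3 others: semen was at least 36.5 times higher than serum (19.8 at the lower end) and at least 89.0 times higher than plasma (48.3). At its bile share miR-429 would have had 95.6 reads in serum and 233 in plasma, against at most 9.

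miR-205 had 99 counts in serum, 90 in semen and 24 in plasma, and was listed at 0 in urine and bile. Its CPM was 209 in serum (170 to 255), 39.4 in semen (31.7 to 48.4) and 20.8 in plasma (13.3 to 31.0). It ranked 104th of 180 in serum, 115th of 174 in semen and 130th of 161 in plasma, in the lower part of each library. Serum stood 5.31 times above semen (3.95 to 7.15) and 10.1 times above plasma (6.39 to 16.4), and semen 1.89 times above plasma (1.20 to 3.11). On the RPM scale serum and semen were close together, at 9.35 and 8.33, and plasma was lower, at 3.33. Serum was then 1.12 times semen and 2.81 times plasma, and semen was 2.50 times plasma. Serum came to 3.04 times semen with TMM sizes and to 2.38 times with DESeq2 size factors. With TMM sizes serum and plasma were nearly level, at 1.02 times, and plasma stood above semen, at 2.99 times.

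The absence of miR-205 from the urine table could not be read as a low share. At its serum share urine would have held 5.55 reads, under the 10 needed to be listed, and at its semen share 1.04. The listed 0 leaves room for up to 339 CPM in urine, above the serum value, so it is not known which fluid had the highest share of miR-205. On the RPM scale, in contrast, 9 reads in urine equal 0.834, below all 3 fluids in which it was listed. In bile the limit was tighter: serum was at least 35.0 times higher than bile (18.3 at the lower end) and semen at least 6.59 times (3.42), and at the plasma share bile would have held 34.8 reads.

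The libraries differed in the sum of listed miRNA counts, although the totals recovered from the RPM were similar in urine (10796777), bile (10555126), semen (10801967) and serum (10593418), with 7207788 in plasma. At the urine sum of 26522 miRNA counts, the shares would have given miR-204 4.12 reads in bile and 1.81 in semen. For miR-429 they would have given 5.36 reads in bile and 20.5 in semen, and for miR-205 5.55 in serum. At that sum miR-204 would have been listed in urine alone, miR-429 in urine and semen, and miR-205 in none of the 5 fluids.

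The 3 miRNAs were then placed among all others. A miRNA was called enriched in a fluid with at least 100 counts there and at least 4 times the CPM of every other fluid, a listed 0 being read as 10 counts. In urine this was met by miR-204, 1 of the 3, against 2.95% of the 237 miRNAs. Most of the 237 could not be called in urine, where the miRNA in 33rd place, miR-182, had 70 counts. The other fluids had 1.69% of miRNAs called in bile, 0.844% in semen, 5.49% in serum and 2.95% in plasma, and none of the 3 were among them. miR-429 had too few counts in urine and was too close to semen. miR-205 had 99 counts in serum, 1 under the minimum, and its listed 0 in urine counted as 377 CPM.

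In single pairs of fluids a 4-fold excess was common. Being above 0 takes 10 counts, which equal 377 CPM in urine, 21.1 in serum, 5.98 in bile and 4.38 in semen. Comparisons with urine thus lean to miRNAs with a high urine share. At its bile share miR-204 would have had 4.12 reads in urine and been left out. The percents, places and medians below hold only for the miRNAs that passed this limit. Among 80 miRNAs above 0 in both urine and bile, 32.5% were at least 4 times higher in urine, miR-204 and miR-429 among them. Their places by this ratio were the 8th and the 24th of 80. Places do not depend on the library totals, but they do depend on this entry limit. The first 3 places were held by miR-450c-5p, miR-9 and miR-363. Relative to the median ratio of the 80, miR-204 was 19.4 times and miR-429 3.46 times higher in urine. Among 77 miRNAs above 0 in both urine and semen, 32.5% were at least 4 times higher in urine. There miR-204 was again 8th, at 37.0 times the median ratio, and miR-429 was 50th, at 0.760 times it. Among 143 miRNAs above 0 in both serum and semen, 38.5% were at least 4 times higher in serum, and miR-205 was the 49th, at 1.95 times the median ratio. miR-205 thus lay closer to the middle of its comparison than miR-204 did in both comparisons of urine.

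**Figure D2:**
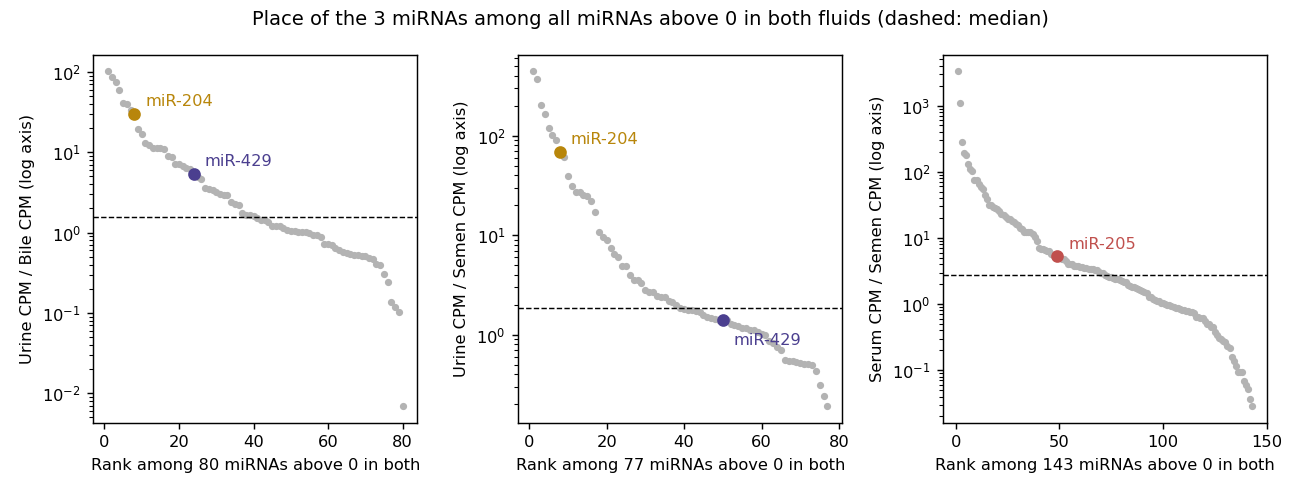
Ratio of CPM between fluids (log axes) for every miRNA above 0 in both, ranked from high to low, with 1 grey point per miRNA and the 3 epithelial miRNAs coloured; dashed lines are medians. miR-204 is 8th of 80 in urine over bile and 8th of 77 in urine over semen, miR-429 is 24th and 50th, and miR-205 is 49th of 143 in serum over semen. Being above 0 takes 377 CPM in urine, 21.1 in serum, 5.98 in bile and 4.38 in semen.

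Ratios of pairs of miRNAs within 1 library need no library total and are the same on both scales. Per 1000 reads of miR-429, urine had 4310 reads of miR-204 (2859 to 6699), bile 769 (652 to 907) and semen 88.5 (74.6 to 104). miR-204 thus outnumbered miR-429 in urine, was slightly below it in bile and far below it in semen. The ratio was 48.7 times higher in urine than in semen (31.0 to 77.9), 5.60 times higher in urine than in bile (3.58 to 8.97) and 8.69 times higher in bile than in semen (6.86 to 11.0). In semen miR-205 was the scarcest of the 3, with 577 reads per 1000 of miR-204 (440 to 753) and 51.0 per 1000 of miR-429 (40.8 to 63.1).

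miR-204 was also set against miR-30a-5p, the most abundant miRNA of the urine library and a miRNA known from kidney epithelium, a reference chosen after the values were seen. Per 1000 reads of miR-30a-5p there were 21.3 reads of miR-204 in urine (17.7 to 25.5), 8.02 in bile (7.07 to 9.06) and 7.91 in semen (6.71 to 9.26). Urine was 2.66 times bile (2.13 to 3.31) and 2.70 times semen (2.11 to 3.44), and bile was 1.01 times semen (0.827 to 1.25). miR-30a-5p was itself enriched in urine by the 4-fold rule. Relative to miR-182, an epithelial miRNA above 0 in all 5 fluids, miR-204 was 28.8 times higher in urine than in bile (20.7 to 40.1) and 91.5 times higher in urine than in semen (64.7 to 129). The size of the excess of miR-204 in urine thus depended on the miRNA it was set against, and its direction was the same for these 3. It would be reversed against a miRNA with a larger urine to bile ratio, such as miR-9, at 85.6 against 30.3 for miR-204.

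miR-182, miR-183 and miR-96 are transcribed from 1 cluster and are known from sensory and other epithelia. Per 1000 reads of miR-182, miR-429 had 414 reads in urine (259 to 647), 221 in semen (209 to 232) and 80.7 in bile (72.0 to 90.2). Semen was 2.73 times bile by this measure (2.42 to 3.10), and 10.2 times bile relative to miR-183 (8.89 to 11.7). Per 1000 reads of miR-183, miR-205 had 338 reads in plasma (203 to 544), 326 in serum (257 to 410) and 69.0 in semen (55.1 to 85.5). The blood fluids were alike in this ratio within an interval of 0.591 to 1.78 for plasma over serum. Relative to miR-182 they were not, since plasma was 13.4 times serum (7.62 to 22.8), with 59 counts of miR-182 in plasma and 3256 in serum.

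**Figure D3:**
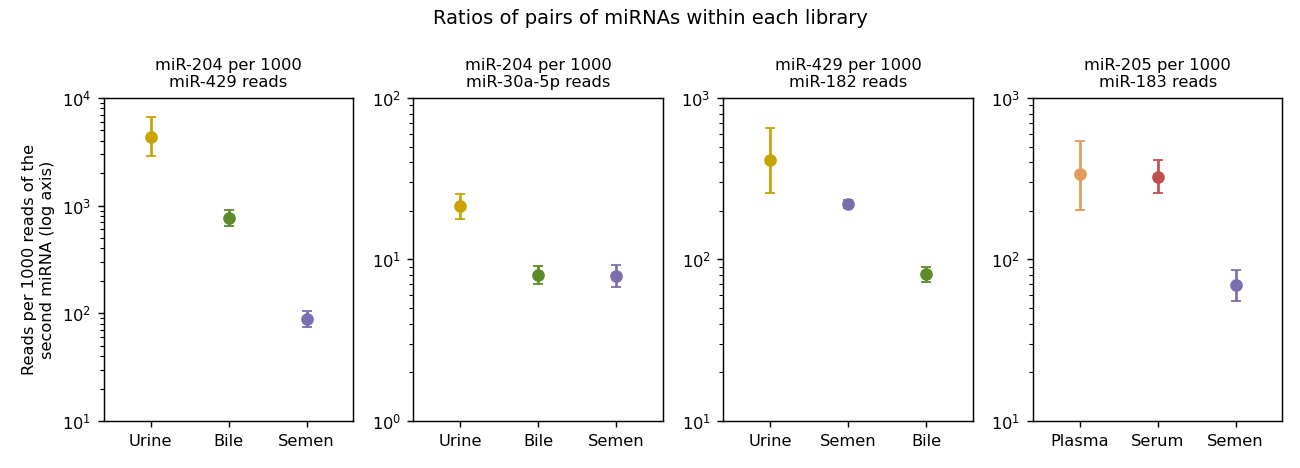
Reads of 1 miRNA per 1000 reads of a second one in the same library (log axes), with 95% counting intervals and 1 library per fluid. miR-204 per miR-429 spans 4310 in urine, 769 in bile and 88.5 in semen, whereas miR-204 per miR-30a-5p is 21.3 in urine and close to 8 in bile and semen, at 8.02 and 7.91.

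The wider epithelial group showed no single fluid pattern. Of 14 names in a list of epithelial miRNAs, 7 were listed, the 3 above with miR-182, miR-183, miR-96-5p and miR-31, and the other names were not analysed here. 1 of these 7, miR-204, was enriched in urine by the 4-fold rule, beside 2.95% of all miRNAs, and none of the 7 in another fluid. In urine only miR-204, with 125 counts, reached the minimum count of that rule. miR-182 had 70 counts there, miR-429 had 29 and the rest of the 7 were listed at 0. None of these could be called in urine, whatever their ratios. Most miRNAs outside the list had too few urine counts as well, so the 2.95% is not a like comparison. miR-31 had 99 counts in bile and 122 in semen and was listed at 0 in urine, serum and plasma. Its 59.2 CPM in bile and 53.4 in semen lie below the 339 CPM that 9 reads equal in urine, so its 0 there does not show a lower share. miR-96-5p had 600 counts in bile, 923 in semen and 10 in serum. At 359 CPM in bile it was under the 377 CPM that 10 counts equal in urine, where it was listed at 0. At 404 CPM in semen it was slightly above that limit. miR-183 had 2545 counts in bile, 1304 in semen, 304 in serum and 71 in plasma, and was listed at 0 in urine. Its 1521 CPM in bile, 642 in serum and 571 in semen lie above the 339 CPM that 9 reads equal in urine. Its 0 there thus stands for a lower value than in those fluids. The 61.5 CPM of miR-183 in plasma lies below that level. miR-182 was the only one of the 7 above 0 in all 5 fluids, at 2639 CPM in urine, 2502 in bile, 3497 in semen, 6881 in serum and 51.1 in plasma.

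Together the 7 held 0.845% of the listed counts in urine (0.738 to 0.962), 0.480% in bile (0.469 to 0.490), 0.540% in semen (0.531 to 0.550), 0.775% in serum (0.751 to 0.801) and 0.0133% in plasma (0.0113 to 0.0156). miR-204 led the group in urine with 55.8% of its counts, and miR-182 led it in bile, semen and serum. On the RPM scale the 7 summed to 20.7 in urine, 761 in bile, 1143 in semen, 346 in serum and 21.4 in plasma.

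**Figure D4:**
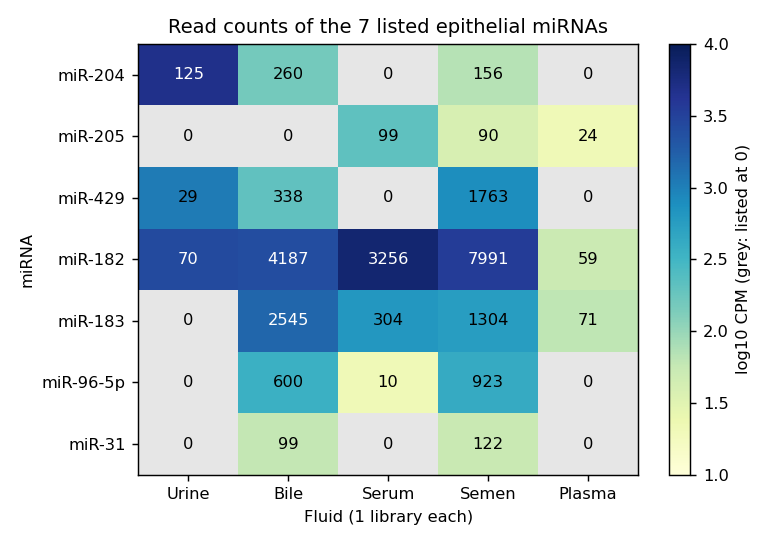
Read counts (numbers) and log10 CPM (colour, grey where listed at 0) of the 7 listed epithelial miRNAs in 1 library per fluid. miR-204 and miR-429 are listed at 0 in serum and plasma, miR-205 in urine and bile, and miR-182 is above 0 in all 5.

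A list of miRNAs known from the kidney tubule held 46.2% of the counts in urine (45.6 to 46.8), 17.7% in bile, 12.9% in semen, 8.01% in serum and 0.801% in plasma. It was led by miR-30a-5p in urine, by miR-192 in bile and plasma, by miR-10a-5p in semen and by miR-215 in serum, and miR-204 made up 1.02% of it in urine. Of its 17 measured entries, arms counted apart, 5 were enriched in urine by the 4-fold rule, against 2.95% of all miRNAs: miR-204, miR-30c-5p, miR-30a-5p, miR-30a-3p and miR-30e-5p. All of these but miR-204 belong to the miR-30 family. Most miRNAs had too few urine counts to be called, so the 2.95% is not a like comparison. The list was also chosen with earlier results of these data known. By the same rule miR-192 of this list was enriched in bile and miR-215 in serum, and miR-215, miR-10a-3p, miR-30b-3p and miR-194b-5p were listed at 0 in urine. On the RPM scale the list came to 1135 in urine, 27992 in bile, 27316 in semen, 3578 in serum and 1282 in plasma.

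Markers of other cells differed between the same libraries. In urine the red cell list (miR-451, miR-486 and miR-144) held 0.468%, in 124 counts that were all miR-451, next to the 125 counts of miR-204. All 6 entries of the leukocyte list were listed at 0 there. Each such 0 leaves room for up to 339 CPM, and the whole list held 305 CPM in bile and 289 in plasma. A lower leukocyte share in urine than in those 2 fluids was therefore not shown. The smooth muscle list held 0.309% in urine, in 82 counts that were all miR-143-3p. Bile, where miR-204 and miR-429 were above 0, held 0.417% of red cell and 2.29% of smooth muscle miRNAs (miR-143 and miR-145) beside its hepatocyte list. Serum, where miR-205 was highest among the listed values, held 10.2% of red cell and 1.02% of leukocyte miRNAs, against 0.583% and 0.0289% in plasma and 0.000525% and 0.000569% in semen. The part of such cells in the values of miR-204, miR-205 and miR-429 was not tested, and more vesicles of a cell type cannot be told apart from more miRNA in each vesicle.

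The miRNAs most like each of the 3 across the fluids were found by the total variation distance between profiles, where a profile is the CPM of each fluid as a percent of the sum over the 5. The distance runs from 0, for identical profiles, to 1, and candidates had to reach 100 counts in 1 of the libraries. The profile of miR-204 was 95.5% urine, 3.15% bile and 1.38% semen. Taken from the RPM it was 22.9% urine, 48.6% bile and 28.5% semen. Nearest to it among 165 miRNAs were miR-9 at 0.0203, miR-30a-5p at 0.0801, miR-363 at 0.0885, miR-30a-3p at 0.0965 and miR-30c-3p at 0.1000, against a median distance of 0.955. Of these, miR-30a and miR-30c are known from kidney epithelium among other tissues, whereas miR-9, the nearest, is best known from the nervous system. With a minimum of 10 counts no miR-30 entry was among the nearest 5, which were miR-450b-5p, miR-9, miR-450c-5p, miR-196b-5p and miR-4331. On the RPM scale the miR-30 entries stayed among the nearest 5 and miR-9 did not. miR-9 had 38 urine counts, 28 bile counts and 106 semen counts.

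The profile of miR-429 was 52.9% urine, 9.77% bile and 37.3% semen. Taken from the RPM it was 1.36% urine, 16.2% bile and 82.5% semen. miR-374a-3p was nearest at 0.0759, followed by miR-32 at 0.106, miR-99b at 0.137, miR-125a at 0.154 and miR-10a-5p at 0.164, with a median of 0.717 over 165 miRNAs. With its listed 0 in urine read as 0, the profile of miR-205 was 77.7% serum, 14.6% semen and 7.72% plasma. With 9 reads in urine, the most that the 0 can hide, it would be 55.7% urine and 34.4% serum, and none of the 5 nearest miRNAs named next would be among its nearest 5. Nearest to it among 166 miRNAs were miR-19b at 0.0572, miR-181d-5p at 0.0676, miR-128 at 0.0855, miR-140-5p at 0.0975 and miR-17-5p at 0.124, all of them likewise listed at 0 in urine, with a median of 0.612. miR-19b and miR-17-5p are known from dividing cells.

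The distance between miR-204 and miR-429 was 0.426, which made miR-429 the 20th nearest to miR-204 among 236 other miRNAs. miR-205 was 0.986 from miR-204 and 0.854 from miR-429 with its listed 0 in urine read as 0. With 9 reads in urine these distances would be 0.429 and 0.406, so how far miR-205 lay from the other two is not known.

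**Figure D5:**
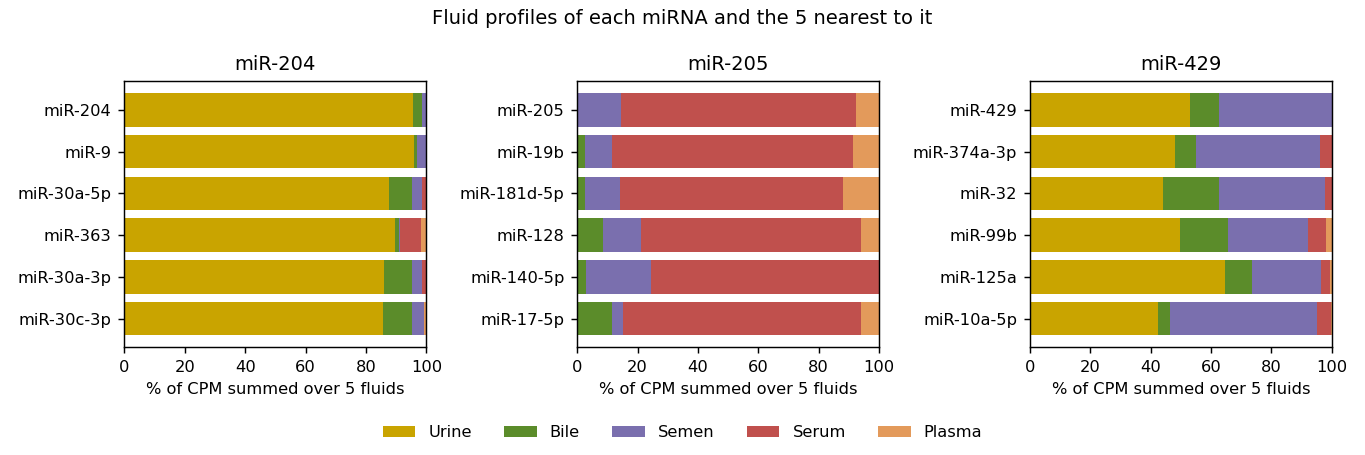
Share of each fluid in the CPM summed over the 5 fluids (percent), for miR-204, miR-205 and miR-429 and the 5 miRNAs nearest to each, in stacked bars with 1 library per fluid. Urine makes up 95.5% of miR-204 and 52.9% of miR-429, and serum 77.7% of miR-205 where its listed 0 in urine is drawn as 0 (34.4% with 9 reads there). On the authors' RPM, not drawn, urine makes up 22.9% of miR-204 and 1.36% of miR-429, and serum 44.5% of miR-205.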

How the data were processed

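Per the labels' protocols, a commercial reagent was used to isolate the exosomes, Trizol to extract RNA, and small RNA of 14 to 40 nt was gel-purified, ligated, amplified and sequenced. The submitters' processing notes name bcl2fastq 2.17 and the build Sscrofa10.2; no source used here gives the aligner or miRNA annotation. The authors deposited, per the file headers, a read count and a normalized value for each miRNA. The normalized values fit RPM that the authors scaled to a larger library total: counts divided by RPM gave 1 constant per library within 0.00461%.

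CPM, shares, ranks and ratios were computed from the counts. Shares carry exact Clopper-Pearson intervals, ratios exact conditional binomial intervals and ratios of ratios exact conditional odds ratio intervals, all at 95% (scipy 1.17.1). PCR reads without molecular identifiers are not independent molecules, so these cover counting error only. A listed 0 was set to 10 counts in ratios, with 3 as an alternative; because nothing under 10 is listed, no upper limit from 3 counts was used. Library totals from edgeR 4.0.16 (TMM) and DESeq2 1.42.0 (size factors) were alternatives; neither was used for tests. The code for intervals of ratios was tested on simulated libraries. The distance formula was checked on a made-up pair of profiles with a known distance, and the odds ratio intervals were not tested.

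The named miRNAs are the 3 members, the listed epithelial miRNAs and the 5 nearest profiles of each member. Listed relatives were to be named too, but the close relatives given above are not listed. Members and lists were chosen with earlier results of these data known. miR-194 in the kidney list took miR-194a and miR-194b.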

Additional observations from a re-analysis of the deposited data

How the results depend on the processing

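No paired analysis was possible because each fluid has 1 library, and no library could be left out as a replicate. The ratio of miR-204 in urine to bile, 30.3, was 14.0 with TMM, 19.4 with DESeq2 size factors and 19.4 relative to the median ratio, within its counting interval without the most abundant miRNA (26.4), and turned to 0.470 on the authors' RPM. The ratio of miR-205 in serum to semen, 5.31, stayed above 1 under the other library totals but moved to 3.04 with TMM, 2.38 with DESeq2, 3.06 without the most abundant miRNA, 1.12 on the RPM and 1.95 relative to the median ratio. With the listed 0 of urine taken as 9 reads, serum was 0.617 times urine. The ratio of miR-429 in urine to semen, 1.42, fell below 1 in each of these: 0.714 with TMM, 0.882 with DESeq2, 0.858 without the most abundant miRNA, 0.0165 on the RPM and 0.760 relative to the median ratio. The listed miRNAs are 0.246% of the authors' total in urine, which enters the RPM and not the CPM; the cause of the other shifts was not tested. The 3-count floor left these 3 ratios as they were, because neither fluid of each is at 0. Without the minimum of 100 counts, or with a minimum of 10, 16 miRNAs were enriched in urine in place of 7, and the numbers in the other fluids were the same. On the RPM, 3 of the 5 nearest profiles of miR-204, 3 of miR-205 and 2 of miR-429 were shared with those named; with a minimum of 10 counts, 1, 3 and 5 were. Values relative to the median and the values with 9 reads in urine were chosen after the data were seen.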
